A study of Homo sapiens with 93 samples.

Results

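GSTM1 (ENSG00000134184.13), GSTM2 (ENSG00000213366.13), GSTM3 (ENSG00000134202.11) and GSTM4 (ENSG00000168765.17) are the mu-class glutathione transferase genes described here. They were taken from the H3K36me3 count table by their Ensembl identifiers, and all 4 were present among its 14000 features. The table covers 93 human lymphoblastoid lines, cultures grown from B cells that Epstein-Barr virus has made able to divide without limit, with 1 library per line. No line was treated, and all lines form 1 group, so the differences measured are those between lines. H3K36me3 is the trimethyl mark on lysine 36 of histone H3. It was read out by CUT&Tag, in which an antibody on chromatin directs a transposase that cuts and tags the DNA beside it. Per the labels' protocols, growth was in 20% serum and in 4 batches that held between 20 and 35 lines each. An assay started from 100000 frozen cells, and its library was amplified for 14 PCR cycles. The labels do not tie a line to a batch, so batch and line cannot be told apart. Marker genes of B cells were not looked up, since the sources used here pair no identifier beyond the 4 members with a symbol.

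Glutathione transferases join the tripeptide glutathione to reactive, electrophilic molecules, which makes these more soluble and less harmful. The mu-class enzymes act in the cytosol as dimers, and their genes lie side by side in 1 cluster that arose by duplication. GSTM1 is known for a deletion allele that is common in human populations, so that many people carry no copy of the gene. H3K36me3 is laid down by SETD2, a methyltransferase that travels with elongating RNA polymerase II, and it marks the bodies of transcribed genes. Copy number of GSTM1 was not analysed here, so how it relates to the levels below was not tested.

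In RefSeq on GRCh38.p14 the genes stand on chromosome 1 in the order GSTM4 (chr1:109656099-109667727, plus strand), GSTM2 (chr1:109668057-109683997, plus strand), GSTM1 (chr1:109687817-109693745, plus strand) and GSTM3 (chr1:109733937-109741038, minus strand). The count table lists them in the same order, in rows 735, 736, 737 and 739. The 4 RefSeq promoter windows of 300 bases are printed to show how alike these windows are. Capitals mark exact runs of at least 12 bases that another of the 4 windows also holds, on the same strand.
GSTM1 (chr1:109687567-109687866): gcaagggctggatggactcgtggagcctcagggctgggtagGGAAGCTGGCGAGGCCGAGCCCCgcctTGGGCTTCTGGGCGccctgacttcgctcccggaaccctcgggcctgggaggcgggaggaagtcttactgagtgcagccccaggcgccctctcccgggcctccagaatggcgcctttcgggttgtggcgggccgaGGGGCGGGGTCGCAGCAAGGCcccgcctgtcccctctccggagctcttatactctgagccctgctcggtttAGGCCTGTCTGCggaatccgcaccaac
GSTM2 (chr1:109667807-109668106): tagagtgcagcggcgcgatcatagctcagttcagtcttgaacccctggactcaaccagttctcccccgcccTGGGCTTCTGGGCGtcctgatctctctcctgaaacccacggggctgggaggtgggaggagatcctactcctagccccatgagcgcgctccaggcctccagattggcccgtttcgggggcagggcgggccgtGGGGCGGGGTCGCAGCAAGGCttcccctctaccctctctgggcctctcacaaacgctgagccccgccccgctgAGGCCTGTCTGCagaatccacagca
GSTM4 (chr1:109655849-109656148): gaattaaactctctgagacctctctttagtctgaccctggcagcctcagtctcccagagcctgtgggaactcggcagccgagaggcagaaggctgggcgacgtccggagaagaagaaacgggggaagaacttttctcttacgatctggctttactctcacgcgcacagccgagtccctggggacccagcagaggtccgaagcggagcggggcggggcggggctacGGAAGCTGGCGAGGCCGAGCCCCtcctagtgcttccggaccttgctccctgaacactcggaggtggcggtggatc
GSTM3 (chr1:109740989-109741288): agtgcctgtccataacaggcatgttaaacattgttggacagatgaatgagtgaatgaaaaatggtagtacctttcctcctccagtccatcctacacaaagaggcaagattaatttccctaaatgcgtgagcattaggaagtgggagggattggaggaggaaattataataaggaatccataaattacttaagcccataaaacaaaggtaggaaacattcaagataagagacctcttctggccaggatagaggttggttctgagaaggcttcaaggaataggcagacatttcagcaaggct
The GSTM1 and GSTM2 windows were the most alike of the 6 pairs, with 68.9% identity over a global alignment and a longest shared run of 21 bases, GGGGCGGGGTCGCAGCAAGGC. GSTM1 and GSTM4 had 48.4% identity and shared a run of 23 bases, GGAAGCTGGCGAGGCCGAGCCCC. Each of these runs was found on either strand in 3 of 35116 RefSeq promoter windows. The GSTM3 window shared no run of 12 bases with the others, and its identity with them was 40.4% to 42.5%. Its G and C content was 41.3%, against 69% for GSTM1, 65.3% for GSTM2 and 62.3% for GSTM4. Searched on both strands, the letters GGGCGG matched 1 time in the GSTM1, 4 times in the GSTM2, 2 times in the GSTM4 and 0 times in the GSTM3 window, and 45% of all windows hold them. The letters TGACNNNGC matched 1 time in the GSTM1 window and 0 times in the other 3, and 13.3% of all windows hold them. The sources used here do not say whether the counted intervals include these windows, nor how reads that fit more than 1 copy were counted. Identity of the gene bodies was not computed, and the promoter identities have no values from unrelated windows beside them. Values of the members are therefore uncertain where reads could be split between copies.

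Library totals ran from 2842955 to 24325746 counts, with a median of 14883653 over 93 libraries. Levels are given as CPM, counts per 1000000 counts of a library after TMM scaling, whose factors ran from 0.916 to 1.05. A chi-square comparison of count profiles over 4278 pairs of libraries gave at least 5.85 per degree of freedom, where counting error alone gives about 1, so no library was counted as a repeat of another. Intervals and counting shares below cover counting error only, since PCR copies are not independent molecules.

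GSTM1 was the member that differed most between lines. Its counts ran from 26 to 1017 with a median of 254. Its level was 4.12 CPM in the lowest line, 21.5 CPM at the median and 43.3 CPM in the highest, a range of 10.5-fold. The values were not spread evenly. In 19 lines GSTM1 lay between 4.12 and 7.79 CPM, in 1 line at 12.4 CPM, and in the other 73 lines between 15.4 and 43.3 CPM. Of these 73 lines, 41 lay from 15.4 to 24.3 CPM, 18 from 25.4 to 34.8 CPM and 14 from 35.1 to 43.3 CPM. The widest gap with at least 6 lines on either side lay between 7.79 and 12.4 CPM and measured 0.67 log2 units. This fell short of the 1 log2 unit set for calling lines separate clusters, so the lines were kept as 1 group and correlations are given over all of them. No line was at 0: the lowest level rested on 73 counts, with an exact 95% Poisson interval of 3.23 to 5.18 CPM. Background reads and reads from other copies were not separated, so a level above 0 does not show that a line carries the gene.

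**Figure D1:**
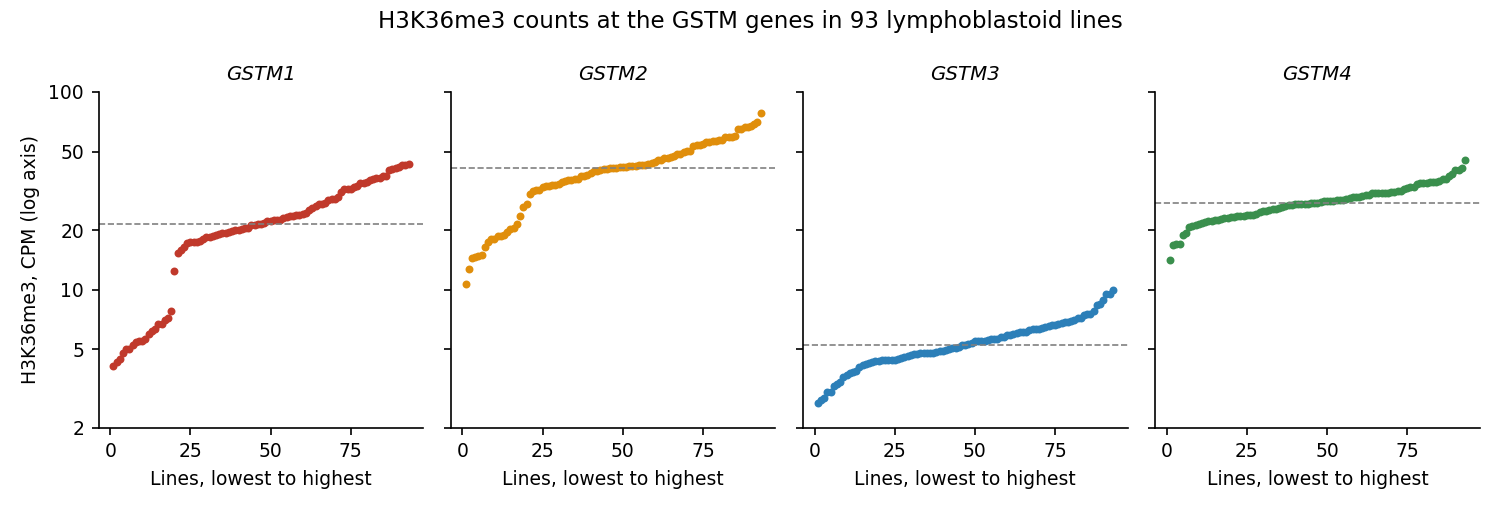
H3K36me3 level in CPM (log axis) of GSTM1, GSTM2, GSTM3 and GSTM4 in 93 lymphoblastoid lines, each panel sorted from its lowest to its highest line; points are lines and the dashed line is the median. GSTM1 has 19 lines between 4.12 and 7.79 CPM, below a gap of 0.67 log2 units that is under the 1 log2 unit set for separate clusters; GSTM2 has 16 lines under 0.5 times its median and a widest gap of 0.17 log2 units, and GSTM3 and GSTM4 have no line that low.

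GSTM2, whose enzyme is abundant in skeletal muscle, also had a tail of low lines. It had 10.7 CPM in the lowest line, 41.4 CPM at the median and 78 CPM in the highest, a range of 7.27-fold, with counts from 64 to 1519. In 16 lines it lay under 0.5 times its median, and in no line under 0.25 times. Its widest gap with 6 lines on either side was 0.17 log2 units, between 27 and 30.4 CPM, also under the 1 log2 unit set for separate clusters.

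GSTM4, a transferase with low activity toward the usual test substrate of the family, varied less. It had 14.2 CPM in the lowest line, 27.6 CPM at the median and 45.3 CPM in the highest, a range of 3.2-fold, with counts from 50 to 922. GSTM3, whose enzyme is known from brain and testis, had the lowest counts of the 4. It had 2.67 CPM in the lowest line, 5.27 CPM at the median and 9.99 CPM in the highest, a range of 3.75-fold, with counts from 13 to 188. No line lay under 0.5 times the median for either gene. Counting error made up 22.7% of the variance of CPM for GSTM3, 7.97% for GSTM4, 1.82% for GSTM1 and 1.71% for GSTM2, so GSTM3 is the least precise of the 4.

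Between genes, levels were compared per kilobase of the RefSeq gene span, with the limit that the sources used here do not state the interval counted. On that scale the medians were 3.63 CPM per kb for GSTM1, 2.59 for GSTM2, 2.37 for GSTM4 and 0.743 for GSTM3. GSTM1 lay above GSTM2 in 80 of 93 lines. The lines where it did not were all among the 19 with GSTM1 between 4.12 and 7.79 CPM. GSTM2 lay above GSTM4 in 53 of 93 lines, so these neighbours in the order were not set apart beyond their spread. GSTM4 lay above GSTM3 in 93 of 93 lines. Per feature and not per length, the median levels stood at percentile 30.1 for GSTM1, 49.4 for GSTM2, 37.1 for GSTM4 and 7.19 for GSTM3 among all 14000 features.

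GSTM1 and GSTM2 varied more between lines than features of like level, and GSTM3 and GSTM4 did not pass that test. The test was edgeR's goodness-of-fit test against the trended dispersion, fitted on 13915 features with each library's log2 total and its dynamic range in the model, and adjusted over all of them. The dynamic range is the spread in a library between its strongly and its weakly marked features. Of all features, 18.6% were called at an adjusted p of 0.05, and 2 of the 4 members were. Whether these 2 share reads is not stated in the sources used here, so their calls may not be independent. The dispersion of GSTM1 was 3.39 log2 units above the trend, or 10.5 times the trend (adjusted p = 3.56e-131, edgeR), and ranked 21 among 13915 features. That of GSTM2 was 2.60 log2 units above it (adjusted p = 5.57e-64, edgeR), at rank 107. GSTM4 stood at 0.34 (adjusted p = 0.251, edgeR) and GSTM3 at -0.08 (adjusted p = 1, edgeR), where the median feature stood at -0.51. DESeq2's stricter dispersion outliers, 1.74% of features, again held GSTM1 and GSTM2 and not the other 2. Coefficients of variation were 0.499 for GSTM1, 0.379 for GSTM2, 0.28 for GSTM3 and 0.208 for GSTM4, against a median of 0.205 over tested features. GSTM1 and GSTM2 kept their calls under all 8 settings tried. GSTM4 passed the test with 5 principal components as covariates (0.95, adjusted p = 2.92e-05) and within the 47 deeper libraries (0.81, adjusted p = 0.00799), and not within the 46 shallower ones (-0.02, adjusted p = 1).

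**Figure D2:**
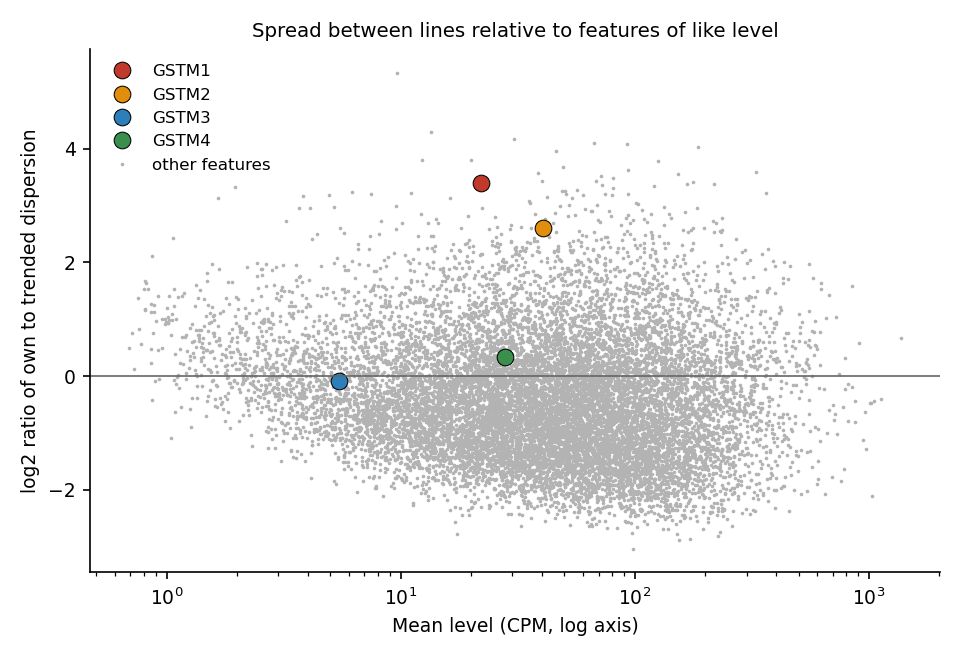
Dispersion between 93 lines against the trend for features of like level (y axis, log2 ratio; 0 is the trend) by mean level in CPM (x axis, log), for GSTM1, GSTM2, GSTM3 and GSTM4 and all other tested features (grey points). GSTM1 at 3.39 and GSTM2 at 2.60 lie near the upper edge of the cloud, and GSTM3 at -0.08 and GSTM4 at 0.34 lie within it.

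A tail like that of GSTM1 was uncommon in the table. Of 12597 features whose median count reached 100, 20 features, GSTM1 included, had 19 or more lines under 0.5 times their own median. Of the same 12597 features, 6, GSTM1 included, had 7 or more lines under 0.25 times their median, the number GSTM1 had. A gap as wide as that of GSTM1, with at least 6 lines on either side, was seen in 3 of 12597 features, GSTM1 included. GSTM2, with 16 lines under 0.5 times its median, had a tail matched or exceeded in 26 features, itself included. At the upper end, 20 lines had GSTM1 above 1.5 times its median, against 8 lines for GSTM2, 6 for GSTM3 and 1 for GSTM4. These counts describe the table and were not tested.

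GSTM1 and GSTM2 moved together across the lines. On log2 CPM, after regression on depth and dynamic range, Pearson's r was 0.974 and Spearman's rho 0.961 over 93 lines (adjusted p = 2e-05 for each, two-sided permutation test over 6 pairs, from an unadjusted 1e-05, the smallest that the permutations can give). Without the 2 lines farthest from the GSTM1 median r was 0.973. Of the 19 lines with the lowest GSTM1, 18 were also among the 19 with the lowest GSTM2. The GSTM2 count exceeded the GSTM1 count in 93 of 93 lines. In CPM, a least squares line had a slope of 1.36 ± 0.0356 (SE) CPM of GSTM2 per CPM of GSTM1 and an intercept of 10.7 ± 0.874 (SE) CPM, with lines scattered around it by 3.75 CPM (SD). The ratio of GSTM1 to GSTM2 was not constant, from 0.233 to 0.707 with a median of 0.541. GSTM2 minus GSTM1 was 6.6 CPM in the lowest line, 18.8 CPM at the median and 35.2 CPM in the highest, with a coefficient of variation of 0.292. The RefSeq spans of the 2 genes are 3819 bases apart. The sources used here do not state whether the intervals counted for them overlap, so a shared level and shared reads cannot be told apart.

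**Figure D3:**
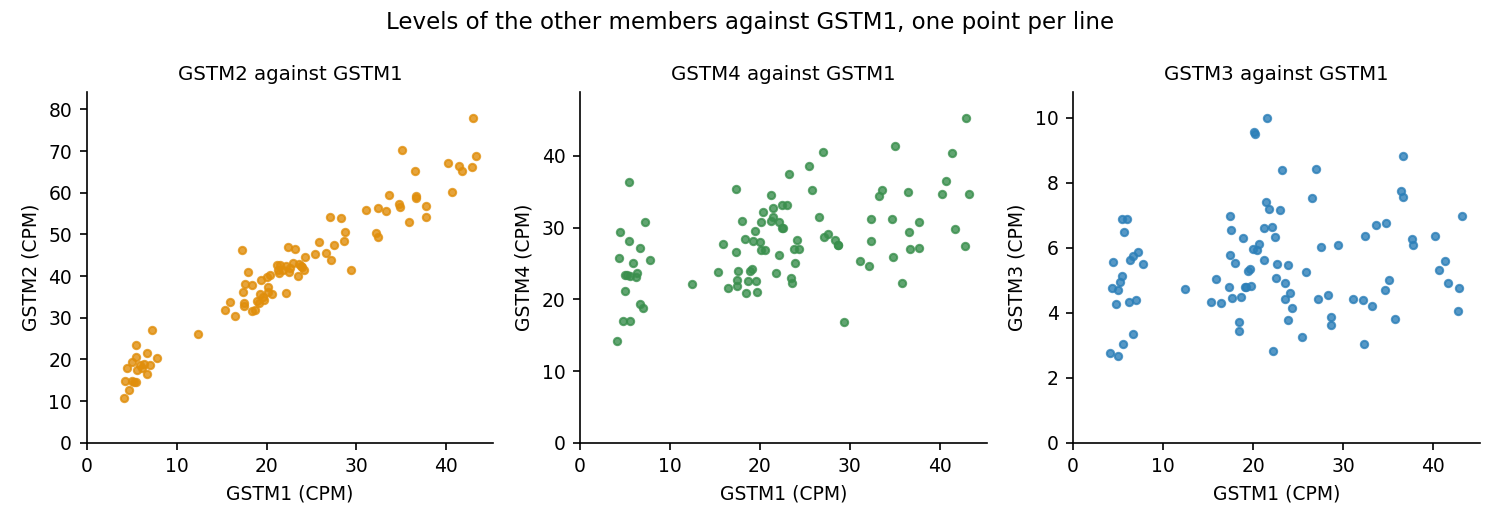
Level of GSTM2, GSTM4 and GSTM3 (y axes, CPM) against the level of GSTM1 (x axes, CPM), 1 point per line for 93 lines. GSTM2 follows GSTM1 closely along a line (r = 0.974 on adjusted log2 values), GSTM4 follows it with wide scatter (r = 0.53), and GSTM3 shows little relation.

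The relation was also taken on either side of 10 CPM of GSTM1, a limit that falls in its widest gap and was chosen after its values were seen. Among the 74 lines above it, r between GSTM1 and GSTM2 was 0.941 and rho 0.932 (adjusted p = 3e-05 for each, permutation test). Among the 19 lines below it, r was 0.546 (adjusted p = 0.0445) and rho 0.379 (adjusted p = 0.166, permutation tests), so rho did not pass, in a narrower range of levels. Within the 46 shallower and the 47 deeper libraries r was 0.985 and 0.967.

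GSTM4 also moved with both, less tightly. The RefSeq span of GSTM4 ends at chr1:109667727 and that of GSTM2 starts at chr1:109668057. Whether their counted intervals overlap is not stated, so a shared level and shared reads cannot be told apart here either. The correlation of GSTM4 with GSTM2 was r = 0.649 and rho = 0.64, and that with GSTM1 was r = 0.53 and rho = 0.54 (adjusted p = 2e-05 for each, permutation test, n = 93). Without 2 lines, r was 0.59 and 0.554. Both held within the 46 shallower libraries (r = 0.669 with GSTM2 and 0.588 with GSTM1) and within the 47 deeper ones (0.628 and 0.481). Among the 74 lines above 10 CPM of GSTM1, r was 0.597 with GSTM2 (adjusted p = 3e-05) and 0.418 with GSTM1 (adjusted p = 0.00038, permutation tests). Among the 19 lines below it, the relation of GSTM4 with GSTM2 passed on r (0.694, adjusted p = 0.00684) and not on rho (0.488, adjusted p = 0.0791, permutation tests). In the same 19 lines GSTM4 and GSTM1 passed on neither, with r = 0.131 (adjusted p = 0.713) and rho = 0.0211 (adjusted p = 0.934, permutation tests). These 19 lines were chosen by their GSTM1 level, which leaves GSTM1 a narrow range. A weak relation there therefore cannot show that the 2 genes are unrelated in low lines. Of the 19 lines lowest in GSTM1, 7 were among the 19 lowest in GSTM4 and 6 among the 19 lowest in GSTM3. Some overlap arises between unrelated genes too, and these counts were not tested.

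GSTM3 was the member least tied to the others. Its correlation with GSTM4 was r = 0.28 (adjusted p = 0.00961) and rho = 0.348 (adjusted p = 0.00084), and r = 0.274 without 2 lines. With GSTM2 it was r = 0.253 (adjusted p = 0.0183) and rho = 0.249 (adjusted p = 0.0205), and r = 0.208 without 2 lines. With GSTM1 it was r = 0.211 (adjusted p = 0.0437) and rho = 0.192 (adjusted p = 0.066, permutation tests), and r = 0.219 without 2 lines, so rho did not pass. These weak relations depended on which libraries were used. Within the 46 shallower libraries none of the 3 passed, with r = 0.038 for GSTM4, 0.191 for GSTM2 and 0.177 for GSTM1 (adjusted p = 0.803, 0.29 and 0.29). Within the 47 deeper ones r was 0.531 for GSTM4 (adjusted p = 0.00028), 0.319 for GSTM2 (adjusted p = 0.0351) and 0.234 for GSTM1 (adjusted p = 0.114, permutation tests). For GSTM1 rho passed in these, at 0.315 (adjusted p = 0.0314, permutation test). On either side of 10 CPM of GSTM1 none of the 3 passed on r or on rho, with fewer lines and a narrower range of GSTM1. The 22.7% share of counting error in GSTM3 stands beside these values, and its part in them was not tested.

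Set against the whole table, GSTM2 and GSTM4 followed GSTM1 and no other feature passed the test. Every other feature was fitted on the log2 CPM of GSTM1 with edgeR's quasi-likelihood test, adjusted over 13914 features. Those that rose with GSTM1 made up 0.0144% of features and were GSTM2 and GSTM4. GSTM2 rose by 0.65 ± 0.02 (SE) log2 units per log2 unit of GSTM1 (adjusted p = 1.94e-53, edgeR), and GSTM4 by 0.16 ± 0.03 (adjusted p = 0.000508, edgeR). No feature fell with GSTM1 in this edgeR test, where 814 features, or 5.85%, had an unadjusted p under 0.05 in either direction. The next feature after the 2 members had an adjusted p of 0.231. GSTM3 had a slope of 0.08 ± 0.04 (adjusted p = 0.838, edgeR). The same count of 2 features, both members, was called under each of 4 alternatives for GSTM1. With 5 principal components the next feature fell just short, at an adjusted p of 0.0503 (edgeR).

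Fitted on GSTM2, the called features were again 2, GSTM1 (slope 1.46 ± 0.04 SE, adjusted p = 7.5e-54) and GSTM4 (0.29 ± 0.04, adjusted p = 1.47e-08, edgeR). Features that rose with GSTM2 were 0.0144% of the table, and none fell in the edgeR test, with 916 features at an unadjusted p under 0.05. The next feature after the 2 members was near the threshold, at an adjusted p of 0.0618 (edgeR). With 5 principal components as covariates 3 further features fell with GSTM2. Fitted on GSTM4, those that rose were 0.0144% and again 2 members, GSTM2 (slope 1.34 ± 0.17, adjusted p = 1.54e-07) and GSTM1 (1.52 ± 0.28, adjusted p = 0.00196, edgeR), and 1 feature, 0.00719%, fell. With no covariates 608 features were called with GSTM4, against these 3.

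Fitted on GSTM3, no member was called. The features that rose with it were 3, or 0.0216%, and 1, or 0.00719%, fell. None of the 4 lay within 10 rows of it. GSTM4 came nearest of the members, with a slope of 0.25 ± 0.09 (adjusted p = 0.142, edgeR). The number of features called with GSTM3 depended strongly on the covariates. It was 8322 with none, 15 with DESeq2 size factors, 1 with 5 principal components and 1 without the 10 shallowest libraries, against 4.

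**Figure D4:**
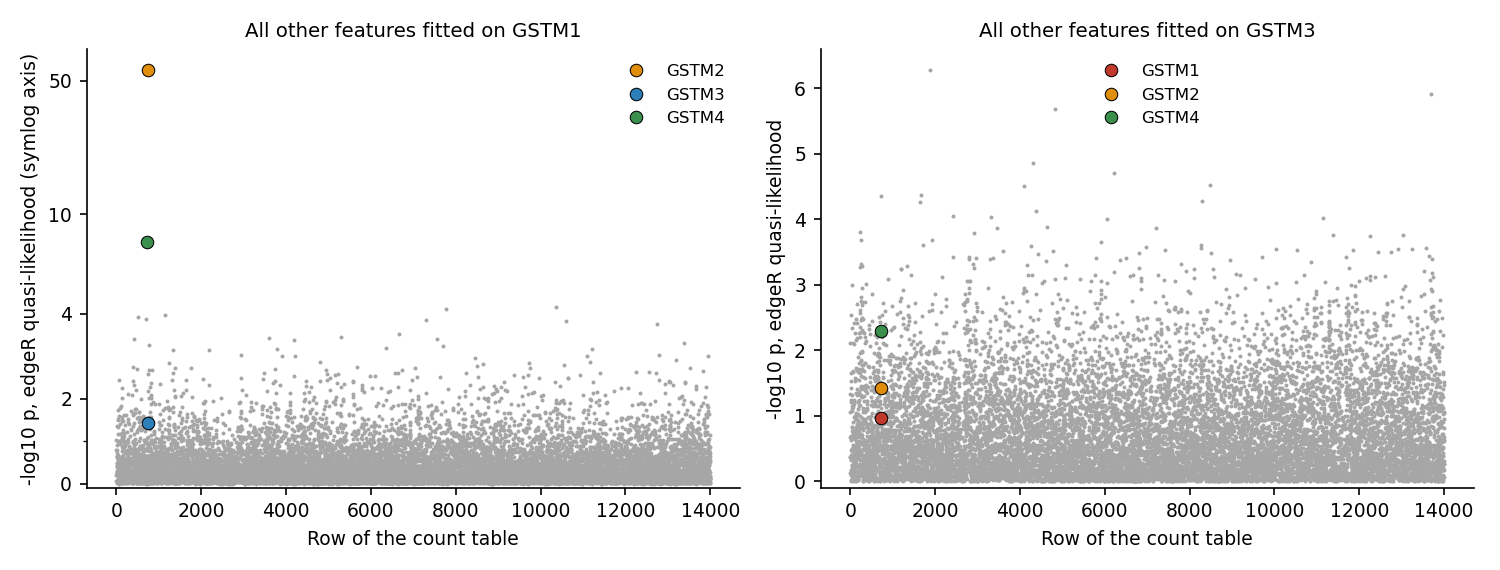
Minus log10 of the unadjusted p from edgeR's quasi-likelihood test of every other feature (grey points) on the level of GSTM1 (left, symmetric log axis) and of GSTM3 (right, linear axis), by row of the count table. On the left GSTM2 and GSTM4 stand above the rest and GSTM3 lies among it, and on the right no member stands out.

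The ranking by rank correlation gave the same picture. Over 93 lines and 13914 features, GSTM2 was the most like GSTM1 (rho = 0.961) and GSTM4 the second (rho = 0.54), and the third, an unnamed feature 4844 rows away, had rho = 0.374. For GSTM4 the first was GSTM2 (rho = 0.64) and the second GSTM1 (rho = 0.54), with GSTM3 at place 8 (rho = 0.348). For GSTM3 the first was ENSG00000166046.11, 2732 rows away, with rho = 0.499, and the first member was GSTM4, at place 41. The row just before GSTM3, ENSG00000134201.12, stood at place 6, with rho = 0.415. The lowest rho was -0.372 for GSTM1, -0.373 for GSTM2, -0.397 for GSTM3 and -0.396 for GSTM4. The top places are descriptions, chosen as extremes among many features.

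The rows on either side of the 3 plus-strand members did not share their pattern. The row after GSTM1 in the table, ENSG00000134201.12, is paired with no symbol in the sources used here. This row stands between GSTM1 and GSTM3, so it may be a further gene of the cluster, and no edge of the cluster is placed here. It had 28.9 CPM in the lowest line, 49.4 CPM at the median and 85.6 CPM in the highest, and its rho with GSTM1 was 0.001 and with GSTM2 0.0139. It did not follow GSTM1 (slope 0.01 ± 0.02 SE, adjusted p = 0.998, edgeR), and its rho with GSTM3, the row after it, was 0.415. The row before GSTM4 had rho = 0.0222 with GSTM4 and 0.000328 with GSTM1. Among the 17 rows that lay within 10 rows of GSTM1 and were not members, rho with GSTM1 ran from -0.232 to 0.166, with a median of 0.001. Rows next to each other in the table had a median rho of 0.248 over 13847 pairs, and 78 pairs, GSTM1 and GSTM2 included, were as closely tied as these.

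**Figure D5:**
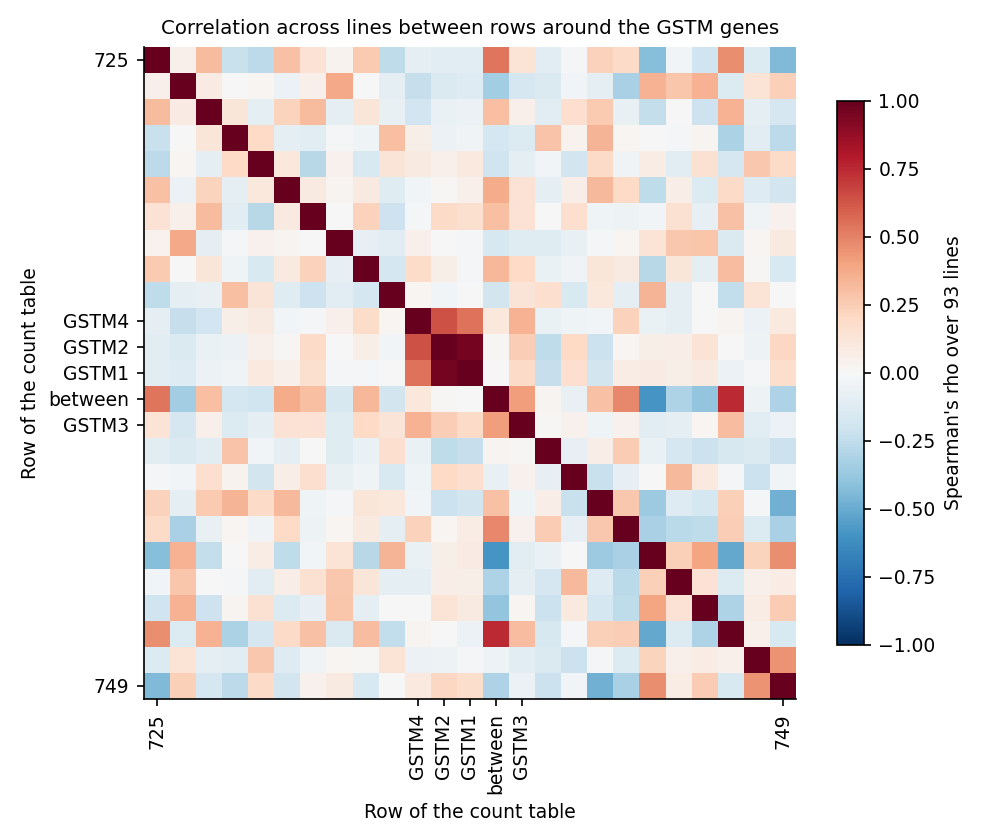
Spearman's rho across 93 lines (colour, -1 to 1) between each pair of the rows 725 to 749 of the count table, on log2 CPM after regression on depth and dynamic range; "between" is the unnamed row that follows GSTM1. GSTM4, GSTM2 and GSTM1 form a block (rho 0.54 to 0.961) that neither the row before GSTM4 nor the row after GSTM1 joins.

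Dynamic range moved with GSTM3 and GSTM4, and no such relation was detectable for GSTM1 and GSTM2. Over 8 relations, GSTM3 was lower in libraries of wider dynamic range, with r = -0.507 (adjusted p = 8e-05) and rho = -0.494 (adjusted p = 0.00016, permutation tests, n = 93), and r = -0.521 without 2 libraries. This was r = -0.627 within the 47 deeper (adjusted p = 8e-05) and r = -0.305 within the 46 shallower libraries (adjusted p = 0.311, permutation tests). GSTM3, at level percentile 7.19, is among the weakly marked features whose median level is subtracted in the dynamic range. A negative relation is therefore expected in part by construction, and the size of that part was not tested. GSTM4 was higher in deeper libraries (r = 0.295, adjusted p = 0.0109; rho = 0.298, adjusted p = 0.0136; r = 0.245 without 2) and lower in those of wider dynamic range (r = -0.317, adjusted p = 0.00688; rho = -0.288, adjusted p = 0.0136; r = -0.281 without 2, permutation tests). Neither GSTM4 relation passed within the shallower libraries (r = 0.216 with depth and -0.181 with dynamic range) or within the deeper ones (0.134 and -0.311). GSTM3 and depth had r = 0.212 (adjusted p = 0.0835) and rho = 0.243 (adjusted p = 0.0382), with r = 0.231 without 2 libraries. For GSTM1 and GSTM2, r with either measure lay between -0.135 and 0.0355 (adjusted p from 0.31 to 0.885, permutation tests).

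The deposited normal scores ordered the lines much as CPM did. Across lines, Spearman's rho between score and CPM was 0.98 for GSTM1, 0.981 for GSTM2, 0.983 for GSTM3 and 0.986 for GSTM4. GSTM1 scores ran from -2.74 to 1.76 with a median of 0.13, so that the low lines lay farther from the median than the high ones. On the scores, GSTM1 and GSTM2 had r = 0.97, GSTM2 and GSTM4 r = 0.603 and GSTM1 and GSTM4 r = 0.461 (adjusted p = 2e-05 for each, permutation test). GSTM1 and GSTM3 did not pass on the scores (r = 0.2, adjusted p = 0.0562, permutation test).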

How the data were processed

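The data are H3K36me3 CUT&Tag libraries of 93 lymphoblastoid cell lines, 1 per line. The authors deposited whole-number read counts per feature, named by Ensembl identifier, and a table of normal scores. Per the submitters' processing notes, the tools were HISAT2 2.2.1 and bedtools and the build was hg38. What each tool did, the counted interval, the read filters and the treatment of reads that fit several places are not stated there. The deposited scores, per the values, are the same sorted numbers in all 93 libraries, from -3.92 to 3.92.

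Counts were scaled with TMM factors (edgeR 4.0.16). Log2 CPM used a prior count of 2. A feature was tested if 47 or more libraries held 10 or more of its counts, which left 13915. Covariates were log2 library total and dynamic range (features were ranked by mean level, and the median log2 CPM of the lowest quintile was subtracted from that of the highest). Variability was tested with edgeR's goodness-of-fit test against the trended dispersion, with tagwise dispersion as a feature's own, and followers with edgeR's quasi-likelihood test. P-values were adjusted by Benjamini-Hochberg at 0.05 over all features. Correlations used 100000 permutations, two-sided, whose smallest p is 1e-05, adjusted over 6 pairs or 8 depth relations. P-values measure the spread between single libraries of different lines, so line, culture and technical differences enter together.

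Promoter windows, gene spans and symbols came from RefSeq (GRCh38.p14), matched by symbol for 4 of 4 members. Promoters were aligned globally with Biopython 1.88. The reference table lists 0 Ensembl identifiers, so the lists of glutathione genes and of cell type markers were not used and no other feature is named. By the rule, the named features were to be the members, the 3 most and 1 least like features of each, and adjacent rows. Some of these features are left out, and most of the others are given without identifiers. Members and lists were chosen with earlier results of these data known.

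The fits were tested on simulated data with known effects. There, features with no planted effect were drawn exactly at the trended dispersion, and the predictor had no counting error. The real table differs in both, so error rates of the calls here were not measured. As alternatives, size factors and dispersion outliers came from DESeq2 1.42.0, the filter was dropped, covariates were dropped or replaced by 5 principal components, the prior count was 0.5, the 10 shallowest libraries were left out, and correlations used the deposited scores. Splits at 10 CPM of GSTM1 and at the median depth were added after seeing the data. R 4.3.3 and Python 3.11.15 were used.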

Additional observations from a re-analysis of the deposited data

How the results depend on the processing

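The variability calls of GSTM1 and GSTM2, their correlation (r) with each other and that of GSTM2 and GSTM4 kept direction and side of the threshold in each setting tried. Over all results, 137 of 174 cases did so, or stayed within 1.5 times the reported count or within 1 SD. The cause was not tested for the changes below unless stated. Variable features numbered 2586, against 242 dispersion outliers in DESeq2, a stricter criterion by construction, and 2476 to 3159 in the other settings. The dispersion ratio of GSTM3, not called in any setting, was 0.28 with 5 principal components and 0.17 in the 47 deeper libraries. That of GSTM4 was -0.17 with the intercept only and -0.018 in the 46 shallower libraries, and passed the test at 0.95 with 5 principal components and 0.81 in the deeper libraries. Features that followed GSTM2 numbered 5 with 5 principal components. Those of GSTM3 numbered 15 with DESeq2 size factors, 8322 with the intercept only, 1 with 5 principal components and 1 without the 10 shallowest libraries. Those of GSTM4 numbered 608 with the intercept only and 6 with 5 principal components. Under the intercept only, depth and dynamic range are left in the values by construction. The correlation of GSTM1 and GSTM3 fell short of the threshold on the deposited scores (r = 0.2001), in the shallower (0.177) and deeper libraries (0.234) and in the 74 lines over 10 CPM of GSTM1 (0.0569), and was -0.0556 in the 19 lines under it. GSTM1 and GSTM4 fell short in those 19 lines (0.131). GSTM2 and GSTM3 fell short in the 19 lines (0.454), the 74 lines (0.0944) and the shallower libraries (0.191), and GSTM3 and GSTM4 in the same 3 settings (0.385, 0.176 and 0.038). Fewer lines and a narrower range enter the splits by construction. Of the depth relations, which passed no test in these cases, GSTM1 and depth changed sign to 0.0336 without the 10 shallowest libraries, GSTM2 and depth to -0.0234 on the scores and GSTM3 and depth to -0.12 in the deeper libraries. No paired analysis was possible because all lines form 1 group. Depth limits GSTM3 most, with as few as 13 counts in a library.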
